A study of Mus musculus with 22 samples.

Results

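Fibroblasts isolated from mouse hearts 5 days after a myocardial infarction (MI) were compared with fibroblasts from hearts 3 days after a sham operation, over all genes of the deposited expression table. These were the 4 libraries labelled with those conditions, 2 for MI and 2 for sham, of 22 libraries in the series. The animals of every group were male wild-type C57BL/6 mice of postnatal weeks 10 to 14, and poly-A RNA was made into stranded libraries. The sham operation was the control for transverse aortic constriction (TAC), a pressure-overload surgery, so the operated control differs from the infarct in the kind of surgery as well as in the day. Fibroblasts of mice labelled sedentary, for which the labels name no operation, are given beside both as 3 further libraries. The labels do not say whether each library came from a separate animal, and a p-value here measures no more than how far these samples spread. The MI titles carry one date, the sham titles carry none, and 1 sedentary title carries another date, so any effect of that date and the effect of the infarct cannot be told apart.

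When a coronary artery is blocked, the muscle it supplies dies and is replaced by scar. Fibroblasts that live between the muscle cells divide, gain contractile fibres as myofibroblasts and secrete fibrillar collagen, with the enzymes that modify and crosslink it, while inflammatory cells clear the debris. Resting fibroblasts keep a different set of transcripts, among them enzymes and secreted proteins that mark them in single-cell studies of the heart.

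All 4 libraries carried fibroblast transcripts. The summed level of Col1a1, Col1a2, Col3a1, Pdgfra, Dcn and Lum was 2141 and 1926 FPKM in the MI libraries, 1473 and 1243 FPKM in the sham libraries and 942 to 1140 FPKM in the sedentary libraries, against 56.3 to 111 FPKM in the 3 cardiomyocyte libraries of the series. This sum includes Col1a1, Col1a2 and Col3a1, which were among the largest rises in MI. It therefore does not compare fibroblast content between MI and sham. FPKM counts fragments per length of transcript and per number of mapped fragments, so that levels of different genes can be compared. Macrophage transcripts were also present in all 4, and the 25 macrophage and monocyte markers summed to 1539 and 1594 FPKM in MI against 1287 and 2774 FPKM in sham. In such bulk RNA, fewer cells of a type and less RNA per cell cannot be told apart. Haemoglobin transcripts summed to 131 and 46.2 FPKM in MI, against 783 and 2228 FPKM in sham. The ribosomal RNA gene Rn45s stood at 1289 and 119.6 FPKM in the MI libraries, against 146 and 183 FPKM in sham, so MI replicate 1 held far more of it than the other 3 libraries. Sequencing depth is not recorded in the table, but the smallest steps of FPKM times transcript length put the depth of MI replicates 1 and 2 at an estimated 2.30 and 2.09 times, and that of sham replicate 1 at 1.55 times, that of sham replicate 2.

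Matrix genes led the rises in the infarct and inflammatory mediators, glutathione transferases and resting-fibroblast genes led the falls. Of 9425 genes tested, 932 were called (9.89%), 596 higher in MI (6.32%) and 336 lower (3.56%), at a Benjamini-Hochberg adjusted p under 0.05 by limma. The rises over 2 on the log2 scale numbered 61 and the falls 39, and the median difference over all genes tested was 0.01. In each of the 932 called genes both MI libraries lay on the same side of both sham libraries. That pattern alone was common, since 28.7% of all genes tested had both MI libraries above both sham libraries and 25% had both below. The counts depended on single libraries. Without MI replicate 2 there were 271 higher and 70 lower genes, without sham replicate 1 there were 322 and 258, without sham replicate 2 there were 506 and 175, and without MI replicate 1 there were 473 and 298. A fit of the 4 MI and sham libraries alone called 125 higher and 33 lower genes. An exact permutation test of 2 libraries against 2 cannot go below a two-sided p of 1 in 3, so each call rests on the spread shared by the 19 fibroblast libraries of the fit.

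**Figure D1:**
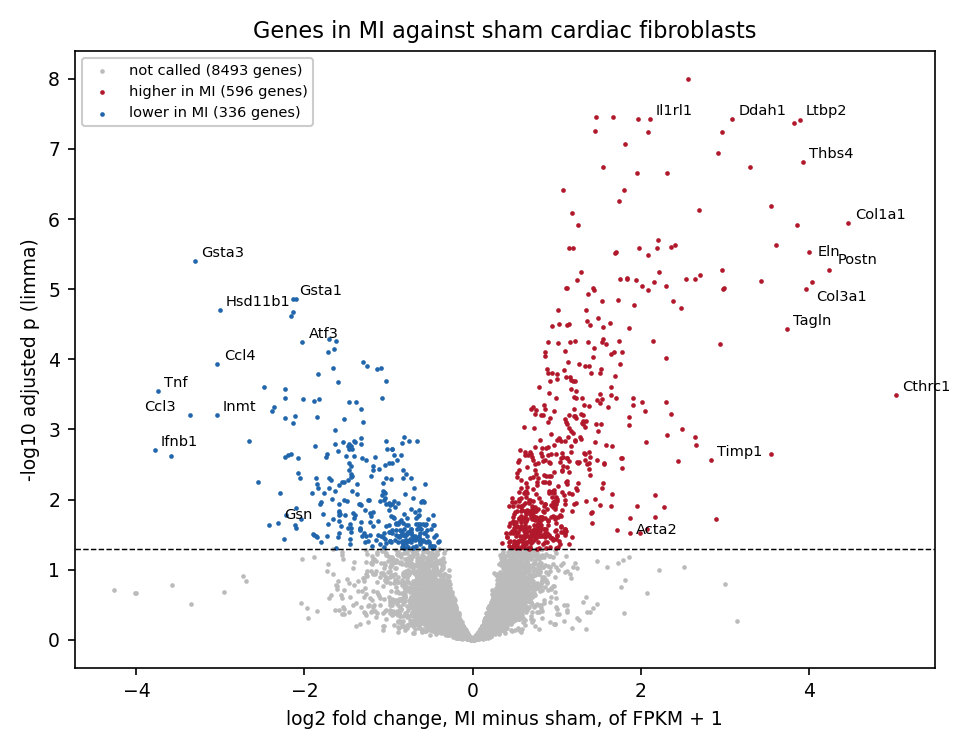
Each point is 1 of 9425 genes, with the log2 fold change of FPKM + 1 in MI minus sham on the x axis and the negative log10 of limma's adjusted p on the y axis. The dashed line is an adjusted p of 0.05. The 596 genes called higher in MI (red) reach log2 fold changes of 5.03 at Cthrc1, and the 336 called lower (blue) reach -3.78 at Ifnb1.

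Of the 336 genes lower and 596 higher, the authors' deposited table of sham against MI called 250 and 430 in the same direction, and none in the opposite one. Those are 73.0% of the calls made here and 45.8% of the 1484 calls in the authors' deposited table. The 1484 were counted over all genes of that table, whether or not they were tested here. It comes from the same series, so the overlap is not an independent check. Between sham and sedentary the same limma fit called 2 genes higher in sham, the chemokine Ccl8 and the predicted gene Gm12505, and 0 lower (0.0212% of genes tested), with 647 genes at an unadjusted p under 0.05. Without sham replicate 1 the count was 142 higher and 2 lower. Against the sedentary libraries MI had 842 higher genes (8.93%) and 221 lower genes (2.34%), in all 11.3% of those tested. These counts were 285 and 25 without MI replicate 2, the lower genes numbered 133 without sedentary replicate 1, and 438 were lower when every library was set to the same median. Timp1, Tagln, Cnn2, Runx2, Ltbp2, Myoc, Smoc2, Plod2, Loxl3, Fkbp10, Scx, Timp4, Bmp4, Chrd, Mdk, Kdelr3, Pdia4, Pdia6, Il1a, Gadd45a, Cp and Hba-a1 are listed at loci shared with other genes, which the authors' counting could divide differently, so their values are less certain. The comparison with sedentary uses the same MI libraries as the one with sham, so its values below are set beside the others and are not a second measurement of the infarct.

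Fibrillar collagens, whose triple helices form the tensile fibres of scar, and the fibril-associated collagens Col12a1, Col14a1 and Col16a1 together had the largest share of members called among the lists with at least 8 tested. All 9 members tested of 10 rose in MI, with a median log2 fold change of 2.70 against 0.01 for all genes, and 9 were also called without either MI library or without sham replicate 1, and 8 without sham replicate 2. Col1a1 (mm10 chr11:94936270-94951856), which encodes the main chain of type I collagen, was at 539 and 658 FPKM in MI, against 17.2 and 38.9 FPKM in sham and 29.6, 16.3 and 27.8 FPKM in sedentary libraries. The MI libraries stood far above every sham and sedentary library, which overlapped each other. The log2 fold change of MI over sham was 4.47 ± 0.40 (SE; limma's adjusted p = 1.13e-06). Col3a1 (chr1:45311538-45349706), the type III chain of early scar, was at 493 and 424 FPKM in MI, against 15.8 and 45.2 FPKM in sham, and rose by 4.04 ± 0.44 log2 units (adjusted p = 7.99e-06). Col1a2, the partner chain of Col1a1, was at 403 and 471 FPKM in MI, against 19.7 and 42.9 FPKM in sham, and rose by 3.86 ± 0.35 (adjusted p = 1.2e-06). For both, as for Col1a1, sham replicate 1 was the lower of the sham libraries. Col5a1 and Col5a2, which encode the type V collagen found inside type I fibrils, rose by 2.99 and 2.70 log2 units, and Col12a1, Col14a1, Col16a1 and Col5a3 rose as well.

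The promoters of Col1a2 and Postn, the matricellular gene described next, are shown because both stand among the largest rises. Each line gives the 120 bases before the RefSeq start on the gene's strand in GRCm38.p6, the assembly of mm10, at chr6:4505498-4505617 (plus strand) for Col1a2 and chr3:54360987-54361106 (plus strand) for Postn. Capitals mark a CCAAT box (CCAAT or its complement ATTGG) in Col1a2 and a TATA box (TATAAA) in Postn.
Col1a2: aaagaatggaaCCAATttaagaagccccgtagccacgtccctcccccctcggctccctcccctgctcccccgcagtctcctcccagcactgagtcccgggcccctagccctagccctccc
Postn: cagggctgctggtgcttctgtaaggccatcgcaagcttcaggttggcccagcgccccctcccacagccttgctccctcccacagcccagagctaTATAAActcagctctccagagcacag
The CCAAT box begins 109 bases before the start of Col1a2, and the TATA box begins 26 bases before the start of Postn. In windows of the same length and on either strand, 24.2% of the 27025 genes in the RefSeq promoter table held CCAAT and 7.45% held TATAAA, so neither word is rare. A match is a word in the sequence and not a measured binding site.

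Network, beaded and other collagens followed, with 8 of 9 members tested higher in MI and a median of 1.39. Col8a1 and Col8a2, which encode short-chain collagen VIII, rose most. Col8a1 was at 66.6 and 76.2 FPKM in MI, against 14.7 and 12.6 FPKM in sham, and rose by 2.30 ± 0.37 log2 units (adjusted p = 0.000405). Col8a2 was at 6.82 and 3.96 FPKM in MI, against 0.0972 and 0.340 FPKM in sham, a level at which reads were few, and rose by 2.36 ± 0.23 (adjusted p = 2.51e-06). Col6a1, Col6a2 and Col6a3, the chains of the beaded collagen VI, rose with smaller folds. Col6a2 was at 63.9 and 44.2 FPKM in MI, against 18.7 and 20.6 FPKM in sham and 45.8, 34.6 and 36.3 FPKM in sedentary hearts. Its sham libraries thus lay below the sedentary ones, and against sedentary it was not called (0.45 log2 units, adjusted p = 0.327). Col15a1, a basement-membrane-zone collagen, likewise rose against sham by 1.54 but was not called against sedentary (0.72, adjusted p = 0.157). Col15a1 was no longer called without MI replicate 2 or without sham replicate 1, nor Col6a2 without MI replicate 1. The laminin and nidogen genes of the basement membrane showed no such shift: of 8 tested only Agrn, which encodes agrin, rose, a call lost without MI replicate 1 or sham replicate 1, and the list's median was -0.29.

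Matricellular genes encode secreted proteins that sit in the matrix and signal to cells rather than bear load. In MI, 11 of 20 rose and 2, Spon1 and Smoc2, fell, with a list median of 1.75. Without MI replicate 2 there were 0 falls, and without either sham library there was 1. Cthrc1 (chr15:39076932-39087119), a secreted collagen triple helix repeat protein that marks injury-activated fibroblasts, had the largest rise of all genes named. It was at 114 and 131 FPKM in MI, against 1.30 and 5.14 FPKM in sham and 0.117, 0.107 and 0.237 FPKM in sedentary libraries. The MI libraries agreed closely, while sham replicate 2 held several times the level of sham replicate 1 and every sedentary library was near 0. The log2 fold change was 5.03 ± 0.73 (adjusted p = 0.000328) against sham and 6.74 (adjusted p = 5.39e-06) against sedentary. Postn (chr3:54361107-54391041) encodes periostin, a marker of activated cardiac fibroblasts. It was at 421 and 369.7 FPKM in MI, against 11.3 and 34.4 FPKM in sham and 9.60, 4.44 and 9.68 FPKM in sedentary libraries, and rose over sham by 4.25 ± 0.44 (adjusted p = 5.29e-06). Again sham replicate 2 was the higher of the sham libraries and no group of libraries reached those of MI. Thbs4, thrombospondin 4, was at 39.1 and 33.4 FPKM in MI, against 0.886 and 2.16 FPKM in sham, and rose by 3.93 ± 0.30 (adjusted p = 1.55e-07). Fn1, the gene of fibronectin, was at 170.3 and 255 FPKM in MI, against 11.2 and 22.9 FPKM in sham, and rose by 3.61 ± 0.35 (adjusted p = 2.33e-06). Spp1, the gene of osteopontin, a product of both fibroblasts and macrophages, was at 34.3 and 110.0 FPKM in MI, against 4.71 and 16.2 FPKM in sham and 0.867, 0.886 and 1.22 FPKM in sedentary libraries. Its MI libraries differed about as much from each other as its sham libraries did, and it rose over sham by 2.66 ± 0.48 (adjusted p = 0.00167). Wisp1, a CCN-family protein, rose by 2.96, and Comp, Tnc, Wisp2 and Thbs3 also rose. Sparc, a collagen-binding protein, was at 692 and 683 FPKM in MI, against 73.8 and 109 FPKM in sham (2.92 ± 0.22, adjusted p = 1.14e-07).

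**Figure D2:**
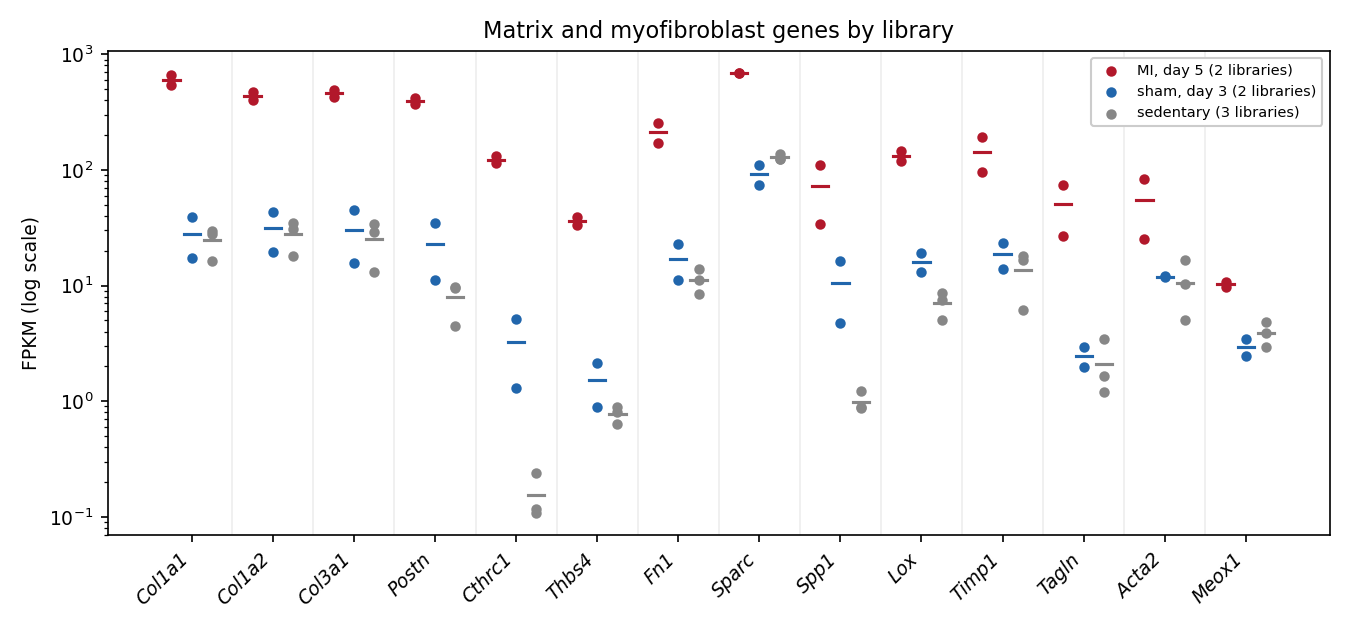
FPKM on a log axis of 14 matrix and myofibroblast genes, 1 point per library and a bar at each group mean, for MI (red), sham (blue) and sedentary fibroblasts (grey). The MI points of Col1a1 lie at 539 and 658 FPKM, those of sham at 17.2 and 38.9 FPKM, and for each gene plotted both MI points lie above both sham points.

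Enzymes that fold, hydroxylate and crosslink collagen rose with it. Of 21 members tested 16 were higher and 1 was lower, with a median of 1.22. Lox, lysyl oxidase, which starts the crosslinks between collagen and elastin chains, was at 119 and 145 FPKM in MI, against 13.1 and 18.9 FPKM in sham and 7.46, 8.67 and 5.07 FPKM in sedentary libraries. MI, sham and sedentary did not overlap, in that descending order, and the fold of MI over sham was 2.98 ± 0.33 on the log2 scale (adjusted p = 9.8e-06). Serpinh1, the collagen chaperone of the endoplasmic reticulum, was at 172 and 257 FPKM in MI, against 44.6 and 48.0 FPKM in sham, and rose by 2.16 ± 0.23 (adjusted p = 7.99e-06). Plod2, the lysyl hydroxylase of collagen telopeptides, rose by 2.32, Loxl3, another lysyl oxidase, by 2.21, and Fkbp10, a collagen prolyl isomerase, by 2.19. The exception was Pcolce2, an enhancer of procollagen C-proteinase, which was at 10.2 and 8.82 FPKM in MI, against 23.4 and 18.6 FPKM in sham, and fell by 1.06 log2 units (adjusted p = 0.03). The call of Pcolce2 was lost when any of the 4 libraries was left out, whereas 11 to 14 of the rises passed.

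Elastic fibre and proteoglycan genes moved both ways, 13 higher and 3 lower of 27. Eln, which encodes tropoelastin, was at 94.0 and 35.3 FPKM in MI, against 1.63 and 4.12 FPKM in sham and 6.61, 6.27 and 3.19 FPKM in sedentary libraries, so here MI replicate 1 was far above MI replicate 2. Its log2 fold change was 4.00 ± 0.40 (adjusted p = 2.91e-06). Ltbp2, a latent TGF-beta binding protein of microfibrils, was at 30.1 and 34.0 FPKM in MI, against 0.723 and 1.86 FPKM in sham, and rose by 3.89 ± 0.26 (adjusted p = 3.8e-08). Fmod, the small proteoglycan fibromodulin, was at 17.4 and 15.4 FPKM in MI, against 0.201 and 0.243 FPKM in sham, and rose by 3.83 ± 0.26 (adjusted p = 4.22e-08). Mfap4, a microfibril-associated glycoprotein, rose by 2.97. Efemp1, fibulin 3, went the other way. It was at 4.16 and 1.91 FPKM in MI, against 20.7 and 14.3 FPKM in sham and 16.9, 16.8 and 14.1 FPKM in sedentary libraries, and fell by 2.23 log2 units (adjusted p = 0.000262). The other members that fell were Podn, podocan, by 1.53, and Dcn, decorin, a small proteoglycan that binds collagen fibrils. Dcn was at 526 and 262 FPKM in MI, against 1269.9 and 982 FPKM in sham and 850.3, 952 and 721 FPKM in sedentary libraries (-1.59 ± 0.35, adjusted p = 0.0062), a call lost without MI replicate 2 or sham replicate 1.

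Several genes of cartilage and tendon rose, 5 of 8 tested. Cilp, cartilage intermediate layer protein, was at 73.3 and 46.9 FPKM in MI, against 5.29 and 8.56 FPKM in sham, and rose by 2.94 ± 0.39 (adjusted p = 6.11e-05). Comp, cartilage oligomeric matrix protein, was at 14.4 and 10.1 FPKM in MI, against 1.0 and 1.05 FPKM in sham, and rose by 2.69 ± 0.24 (adjusted p = 7.51e-07). Runx2, the transcription factor that directs bone formation, stood at 2.09 and 2.29 FPKM in MI, against 0.418 and 0.398 FPKM in sham, a low level with little spread, and rose by 1.18. The tendon factor Scx was at 1.21 and 0.988 FPKM in MI, against 0.0290 and 0.0704 FPKM in sham, and its call (adjusted p = 0.0368) was lost when any of the 4 libraries was left out. Col2a1, the collagen of hyaline cartilage, was among the 15 largest rises, at 25.2 and 30.6 FPKM in MI, against 0.949 and 2.09 FPKM in sham (3.55 ± 0.31, adjusted p = 6.46e-07). Also among the 15 were C1qtnf3, a secreted C1q/TNF-related protein, at 22.6 and 11.3 FPKM in MI, against 0.104 and 0.0690 FPKM in sham (3.97 ± 0.41, adjusted p = 9.91e-06). Rgs16, a regulator of G-protein signalling, was at 42.1 and 65.0 FPKM in MI, against 5.65 and 2.11 FPKM in sham (3.55 ± 0.66, adjusted p = 0.00228).

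Matrix proteases and their inhibitors changed in part, 8 higher and 1 lower of 27, and the list's median was 0.18. Without MI replicate 2 there were 5 rises. Timp1, an inhibitor of matrix metalloproteinases, was at 95.1 and 191 FPKM in MI, against 23.2 and 13.9 FPKM in sham. Both MI libraries were higher than any sham library, MI replicate 2 being the higher of the MI pair, and the call (2.84 ± 0.55, adjusted p = 0.00273) was lost without MI replicate 2. Mmp14, the membrane-bound collagenase, was at 44.7 and 61.9 FPKM in MI, against 17.0 and 17.6 FPKM in sham (1.55 ± 0.34, adjusted p = 0.00575), also not called without MI replicate 2. Adam8, Adam12 and Adam19, membrane proteases that shed surface proteins, rose by 1.90, 1.80 and 1.53. Timp4, the inhibitor most typical of heart, was at 1.33 and 0.415 FPKM in MI, against 3.30 and 4.65 FPKM in sham, and fell by 1.44 log2 units (adjusted p = 0.0258), a call lost without MI replicate 2 or either sham library.

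Of 19 contractile genes of the myofibroblast tested 7 rose, with a median of 0.88, and the count was 3 without MI replicate 2 and 4 without sham replicate 1. Tagln, transgelin, was at 26.9 and 74.6 FPKM in MI, against 1.98 and 2.97 FPKM in sham and 1.66, 3.43 and 1.21 FPKM in sedentary libraries. MI replicate 2 held several times the level of MI replicate 1, and both exceeded every other library (3.74 ± 0.46, adjusted p = 3.72e-05). Acta2, smooth muscle actin and the defining myofibroblast marker, was at 25.5 and 83.8 FPKM in MI, against 12.1 and 11.8 FPKM in sham and 10.3, 16.5 and 5.04 FPKM in sedentary libraries. The same MI replicate was the high one, the call (1.87 ± 0.48, adjusted p = 0.0182) was lost without it, and also without either sham library. Actn1, an actin crosslinker, and Palld, a scaffold of actin fibres, rose by 1.54 and 1.15, calls that held with each library left out. Cnn2, calponin 2, was at 6.45 and 12.8 FPKM in MI, against 2.05 and 3.52 FPKM in sham (1.45 ± 0.27, adjusted p = 0.00149), and was not called without MI replicate 2. The fit of the 4 MI and sham libraries alone called Tagln and Palld, but not Acta2, Actn1 or Cnn2. Markers of pericytes and smooth muscle, which share this contractile program, were called for 3 of 13: Mcam, Cspg4 and Notch3 rose by 1.34, 1.19 and 0.72. The part of such cells in the rise of Acta2 and Tagln was not tested. None of 10 tested SRF, MRTF and YAP regulators and targets was called by limma, with 2 at an unadjusted p under 0.05.

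The window of 120 bases before the start of Cnn2 (GRCm38.p6, chr10:79988480-79988599, plus strand) is shown because it holds a CArG box, the word that serum response factor reads at contractile genes. Capitals mark that box, which begins 56 bases before the start.
Cnn2: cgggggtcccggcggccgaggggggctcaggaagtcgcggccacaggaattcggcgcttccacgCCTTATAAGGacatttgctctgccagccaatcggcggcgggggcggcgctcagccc
Among the 17 contractile genes of the list that were tested and are in the RefSeq promoter table, 4 held a CArG box in this window, against 0.858% of all genes in that table. The CArG boxes of such genes can also lie further away, which was not searched.

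Integrins, the receptors by which cells hold the matrix, were called for 5 of 10, for 0 without MI replicate 2 and for 2 without MI replicate 1 or without sham replicate 1. Itgb3, the beta 3 chain, was at 2.23 and 3.56 FPKM in MI, against 0.813 and 0.410 FPKM in sham (1.26 ± 0.25, adjusted p = 0.00293). Itga11, the collagen-binding alpha 11 chain of fibroblasts, was at 2.10 and 2.11 FPKM in MI, against 1.12 and 1.19 FPKM in sham, a small rise of 0.52 that no longer passed when any of the 4 libraries was left out.

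Among known markers of fibroblasts activated by cardiac injury, 12 of 17 rose, with a median of 1.87. Besides Cthrc1, Postn, Thbs4, Ltbp2 and Cilp, Ddah1, an enzyme that degrades methylated arginine, was at 10.4 and 10.5 FPKM in MI, against 0.143 and 0.567 FPKM in sham (3.09 ± 0.20, adjusted p = 3.77e-08). Meox1, a homeobox transcription factor, was at 10.8 and 9.72 FPKM in MI, against 2.48 and 3.43 FPKM in sham and 3.88, 4.86 and 2.91 FPKM in sedentary libraries. The MI libraries were nearly equal and above all others (1.51 ± 0.23, adjusted p = 0.000315). Of 17 cardiac and epicardial transcription factors 7 rose, and 4 did without MI replicate 1 or without sham replicate 1. Snai1, Snai2, Twist1 and Prrx1, which are known as regulators of mesenchymal cells, rose by 1.47, 0.91, 0.90 and 1.10, and the call of Prrx1 was lost without MI replicate 2 and without sham replicate 2.

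Wnt pathway genes formed the most shifted signalling list, 10 higher and 0 lower of 13 tested. The members called were secreted antagonists and receptors. Of the list's 24 members 11 were not tested, among them the ligands Wnt2, Wnt4 and Wnt5a, and Axin2, so nothing is said of these. Sfrp2, a secreted frizzled-related protein, was at 54.7 and 25.4 FPKM in MI, against 1.89 and 3.35 FPKM in sham (3.44 ± 0.37, adjusted p = 7.72e-06). MI replicate 1 was the higher of the MI pair, and sham and sedentary libraries overlapped. Sfrp1, Sfrp4, Sfrp5, Frzb and Dkk3, of the same secreted families, rose too, Sfrp1 by 1.70, Frzb by 1.49 and Dkk3 by 2.15. The frizzled receptors Fzd1, Fzd2, Fzd7 and Fzd8 rose, Fzd1 by 1.39. The list kept 8 to 10 calls with each library left out.

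TGF-beta and activin genes were mixed, 5 higher and 2 lower of 22, with 2 rises without MI replicate 2 and 3 without sham replicate 2. Inhba, the activin A chain, was at 31.6 and 69.3 FPKM in MI, against 10.3 and 2.70 FPKM in sham (2.89 ± 0.73, adjusted p = 0.019), with calls lost without MI replicate 2 and without sham replicate 2. Sedentary libraries of Inhba spread as widely, at 11.7, 11.5 and 1.95 FPKM. Tgfb3 was at 12.6 and 9.01 FPKM in MI, against 1.86 and 3.19 FPKM in sham (1.75 ± 0.24, adjusted p = 0.000117). Fstl1, a follistatin-like secreted protein, was at 214 and 226 FPKM in MI, against 69.4 and 51.7 FPKM in sham (1.86 ± 0.32, adjusted p = 0.000878). The fit of the 4 MI and sham libraries alone called Fstl1 and not Tgfb3. Both of these rises held with each library left out. Gdf15, a stress-induced member of the family, fell to 10.6 and 4.00 FPKM in MI, against 32.0 and 22.0 FPKM in sham (adjusted p = 0.00602). The co-receptor Tgfbr3 fell by 1.08 log2 units, and both falls were lost without MI replicate 2 and without sham replicate 1. Of 12 BMP ligands and antagonists, Bmp2, Bmp4 and the antagonist Chrd fell, by 1.45, 0.98 and 0.57, and none of these falls passed without MI replicate 2 and 1 passed without sham replicate 2.

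Growth factors and receptors had 11 members higher and 1 lower of 33, and 6 higher without MI replicate 2. Ptn and Mdk, which encode the related heparin-binding factors pleiotrophin and midkine, were the largest rises. Ptn was at 9.56 and 7.84 FPKM in MI, against 0.427 and 0.939 FPKM in sham (2.54 ± 0.27, adjusted p = 7.13e-06). Mdk was at 13.6 and 12.0 FPKM in MI, against 1.34 and 1.60 FPKM in sham (2.48 ± 0.29, adjusted p = 1.84e-05). Of the EGF-family ligands Ereg and Hbegf rose and Areg fell. Hbegf, heparin-binding EGF-like growth factor, rose by 1.18, a call lost without MI replicate 2 or sham replicate 1. Ereg, epiregulin, was at 17.7 and 30.4 FPKM in MI, against 7.31 and 2.94 FPKM in sham, and rose by 2.08, a call lost without MI replicate 2 or sham replicate 2. Areg, amphiregulin, was at 0.886 and 0.738 FPKM in MI, against 5.10 and 5.59 FPKM in sham, and fell by 1.81, a call lost when MI replicate 2 or either sham library was left out.

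Secretory pathway transport genes, which carry new proteins out of the endoplasmic reticulum, rose in 7 of 22 cases with a median of 0.62, in 1 case without MI replicate 2 and in 4 without sham replicate 1. Kdelr3, a receptor that returns escaped proteins to the reticulum, was at 18.5 and 20.9 FPKM in MI, against 5.64 and 6.45 FPKM in sham (1.55 ± 0.20, adjusted p = 5.21e-05). Sec61b, a chain of the translocation channel, rose by 1.52, and Ssr2, of the translocon-associated complex, by 1.34, neither called without MI replicate 2. Among 23 folding and stress genes of the reticulum, Pdia4, Pdia6 and Edem1 rose, and 0 were called without MI replicate 2 or without sham replicate 1.

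Cell division genes rose from very low levels. Of 32 mitosis genes 11 passed the expression filter and 7 of those rose. None of these calls held without MI replicate 2 or without sham replicate 1. Ube2c, Ccna2 and Mad2l1 reached 1 FPKM in both MI libraries and in no sham or sedentary library. High MI values alone could thus admit a gene to the test, so the share called may in part reflect the filter. Ccnb1, cyclin B1, was at 0.725 and 2.43 FPKM in MI, against 0.0453 and 0.401 FPKM in sham and 0.0727, 0.0854 and 0.160 FPKM in sedentary libraries (1.01 ± 0.23, adjusted p = 0.00981). Cdk1, its partner kinase, was at 0.816 and 2.02 FPKM in MI, against 0.0795 and 0.385 FPKM in sham (0.94 ± 0.24, adjusted p = 0.0175). Ube2c, the ubiquitin-conjugating enzyme of mitotic exit, was at 1.43 and 3.53 FPKM in MI, against 0.437 and 0.917 FPKM in sham (1.0 ± 0.28, adjusted p = 0.0318). In all 3 the order was the same, MI replicate 2 highest, then MI replicate 1, sham replicate 2 and sham replicate 1. Of 14 replication genes tested Rrm2 and Tyms rose, and 0 did without MI replicate 2 or without sham replicate 1. Mki67, the Ki-67 antigen, stayed below the expression filter with 0.487 and 0.862 FPKM in MI and 0.284 and 1.39 FPKM in sham.

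The promoters of these 3 mitotic genes are shown because CCAAT boxes recur in them. Each line is the 120 bases before the RefSeq start on the gene's strand in GRCm38.p6, at chr13:100786487-100786606 (minus strand) for Ccnb1, chr10:69352913-69353032 (minus strand) for Cdk1 and chr2:164769809-164769928 (plus strand) for Ube2c. Capitals mark CCAAT or its complement ATTGG.
Ccnb1: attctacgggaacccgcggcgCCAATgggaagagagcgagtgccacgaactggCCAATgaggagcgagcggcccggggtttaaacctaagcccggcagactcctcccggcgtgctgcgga
Cdk1: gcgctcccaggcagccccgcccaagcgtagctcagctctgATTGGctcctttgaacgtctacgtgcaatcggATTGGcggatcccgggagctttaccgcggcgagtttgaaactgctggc
Ube2c: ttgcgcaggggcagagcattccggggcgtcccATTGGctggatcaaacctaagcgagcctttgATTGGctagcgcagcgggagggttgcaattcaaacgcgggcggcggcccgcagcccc
Each promoter holds 2 such boxes, beginning 99 and 67 bases before the start in Ccnb1, 80 and 48 in Cdk1 and 88 and 57 in Ube2c. Of the 9 tested mitosis genes with a promoter in that table, 7 held CCAAT in this window, against 24.2% of all genes in it.

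Markers of the resting cardiac fibroblast fell as a group, 13 of 25 tested, with none higher and a median of -1.21. The count was 3 without MI replicate 2, 19 without MI replicate 1, 8 without sham replicate 1 and 6 without sham replicate 2, and their summed level was 1570 and 783 FPKM in MI, against 2948 and 2790 FPKM in sham. Gsn, the actin-severing protein gelsolin, was the most abundant, at 476 and 138 FPKM in MI, against 1350.0 and 1220.3 FPKM in sham and 1268, 1362 and 1033 FPKM in sedentary libraries. Its 2 MI libraries were far apart and both below all others, and the call (-2.32 ± 0.60, adjusted p = 0.0215) was lost without MI replicate 2 and without either sham library. Inmt (chr6:55170627-55174990), indolethylamine N-methyltransferase, was at 4.22 and 0.781 FPKM in MI, against 20.7 and 28.2 FPKM in sham and 9.56, 11.4 and 18.9 FPKM in sedentary libraries (-3.04 ± 0.50, adjusted p = 0.000632). Dpep1, a membrane dipeptidase, was at 31.1 and 10.4 FPKM in MI, against 78.5 and 99.9 FPKM in sham (-2.23 ± 0.37, adjusted p = 0.000692). The fit of the 4 MI and sham libraries alone called neither Inmt nor Dpep1, and 0 of the 25 markers in all. Inmt and Dpep1 were called with each library left out. Clec3b, tetranectin, was at 37.0 and 11 FPKM in MI, against 87.3 and 88.7 FPKM in sham (-2.06 ± 0.44, adjusted p = 0.00497), a call lost without MI replicate 2. Not every marker passed. Pdgfra, the receptor that defines the fibroblast lineage, was at 9.93 and 9.22 FPKM in MI, against 10.9 and 14.7 FPKM in sham (-0.37 ± 0.33, adjusted p = 0.564). Tcf21, the transcription factor of resident fibroblasts, was at 22.5 and 6.94 FPKM in MI, against 41.7 and 22.4 FPKM in sham and 31.8, 43.2 and 16.9 FPKM in sedentary libraries (-1.21 ± 0.45, adjusted p = 0.105), so MI replicate 1 stood at the level of sham replicate 2.

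Hsd11b1, Fmo2 and Myoc were also among the genes with large falls. Hsd11b1, which regenerates active glucocorticoid, was at 6.18 and 2.48 FPKM in MI, against 36.5 and 42.1 FPKM in sham and 19.4, 27.8 and 22.4 FPKM in sedentary libraries (-3.01 ± 0.36, adjusted p = 2.01e-05). Sgk1, a kinase induced by glucocorticoid, went the other way, at 88.3 and 60.2 FPKM in MI, against 22.9 and 28.4 FPKM in sham (1.48 ± 0.29, adjusted p = 0.00269). They were the only members called of 10 tested glucocorticoid response genes, and without sham replicate 1 there were 3 falls. Fmo2, a flavin monooxygenase, was at 3.20 and 1.12 FPKM in MI, against 11.3 and 21.5 FPKM in sham and 3.85, 2.70 and 6.46 FPKM in sedentary libraries. Its sham level was the one that stood apart, and against sedentary it was at -0.78 log2 units (adjusted p = 0.165). Myoc, myocilin, fell by 2.39 (adjusted p = 0.000542).

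The glutathione transferases led the NRF2 antioxidant list, in which 4 of 26 fell and 0 rose. Gsta3 (chr1:21240589-21265559) was at 1.65 and 0.756 FPKM in MI, against 17.1 and 23.9 FPKM in sham and 5.74, 7.36 and 6.93 FPKM in sedentary libraries. The groups did not overlap, with sham highest, sedentary next and MI lowest (-3.30 ± 0.33 against sham, adjusted p = 3.92e-06; -1.82 against sedentary, adjusted p = 0.000608). Gsta1 followed the same order at 0.406 and 0.258 FPKM in MI, against 4.17 and 5.62 FPKM in sham, but it is so alike Gsta3 and other alpha-class genes that reads may be divided between them uncertainly. Gstm1, of the mu class, fell by 1.89 (adjusted p = 0.000398) and carries the same uncertainty. Mt1, a metallothionein that binds zinc, was at 82.5 and 94.2 FPKM in MI, against 304 and 198 FPKM in sham and 154, 171 and 124 FPKM in sedentary libraries (-1.47 ± 0.29, adjusted p = 0.00304). It was not called without sham replicate 1, nor against sedentary (-0.74, adjusted p = 0.0864). Mt2 was at 138 and 166 FPKM in MI, against 556 and 298 FPKM in sham, and did not pass (-1.42 ± 0.51, adjusted p = 0.096).

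Cytokine and chemokine genes were among the largest falls. Tnf (chr17:35199391-35201996), the gene of tumour necrosis factor, was at 6.73 and 2.89 FPKM in MI, against 76.4 and 68.5 FPKM in sham and 90.3, 44.5 and 44.3 FPKM in sedentary libraries. Both MI libraries were far below every other, and sham and sedentary overlapped (-3.74 ± 0.56 against sham, adjusted p = 0.000286; -3.39 against sedentary, adjusted p = 0.000267). Of 29 cytokines and receptors tested, 2 fell against sedentary, Tnf and Il10, and 5 rose. Against sham 6 fell and 4 rose. The falls numbered 1 without MI replicate 2, 3 without MI replicate 1 or sham replicate 2, and 4 without sham replicate 1. Il10, an anti-inflammatory cytokine, was at 2.97 and 0.970 FPKM in MI, against 33.5 and 31.7 FPKM in sham (-3.58 ± 0.67, adjusted p = 0.0024), a call lost without MI replicate 2. Il1a, interleukin 1 alpha, was at 1.72 and 2.31 FPKM in MI, against 11.6 and 14.6 FPKM in sham (-2.22 ± 0.55, adjusted p = 0.0164), a call lost when any of the 4 libraries was left out. Against sedentary, limma did not call Il1a (-1.22, adjusted p = 0.142). Il6 was not called, at 93.2 and 162 FPKM in MI, against 448 and 115 FPKM in sham (-0.88 ± 1.02, adjusted p = 0.685), and its MI replicate 2 lay between the sham libraries. Among the rises, Il1rl1, the receptor of interleukin 33, was at 4.29 and 6.46 FPKM in MI, against 0.339 and 0.590 FPKM in sham (2.11 ± 0.14, adjusted p = 3.77e-08). Tnfrsf11b, the decoy receptor osteoprotegerin, was at 3.52 and 10.1 FPKM in MI, against 0.694 and 0.120 FPKM in sham (2.36 ± 0.37, adjusted p = 0.000596). Fits of the 4 MI and sham libraries alone and of the 7 with sedentary called Il1rl1, but neither called Tnfrsf11b. Both rises held with each library left out.

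CC chemokines, which draw monocytes, eosinophils and lymphocytes, fell in 7 of 13 cases and rose in 0, with a median of -1.44, and 4 fell without MI replicate 2. Ccl3 (chr11:83647843-83649378) was at 18.8 and 16.1 FPKM in MI, against 196 and 181 FPKM in sham and 221, 152 and 71.9 FPKM in sedentary libraries (-3.37 ± 0.55, adjusted p = 0.000624). Ccl4 (chr11:83662584-83664683) was at 41.3 and 37.8 FPKM in MI, against 285 and 385 FPKM in sham and 319.7, 253 and 153 FPKM in sedentary libraries (-3.04 ± 0.42, adjusted p = 0.000115). For each the MI pair was tight and below every sham and sedentary library. Ccl12 and Ccl11 fell by 2.66 and 2.36, and these 4 falls held with each library left out. Ccl5 was at 17.7 and 29.0 FPKM in MI, against 165 and 75.2 FPKM in sham (-2.25 ± 0.64, adjusted p = 0.0368), a call lost without either MI library and without sham replicate 1. The CXC and CX3C chemokines split, 2 higher and 2 lower of 12, with 1 rise when any of the 4 libraries was left out. Cxcl2, which draws neutrophils, was at 105 and 82.7 FPKM in MI, against 788 and 386 FPKM in sham (-2.55 ± 0.54, adjusted p = 0.00555), not called without MI replicate 2 or sham replicate 1. Cxcl14 fell by 1.67, not called without MI replicate 2 or sham replicate 2. Cx3cl1, fractalkine, rose by 1.76 with a call in every such fit, and Cxcl12, the ligand of CXCR4, rose by 0.80 with a call in none of them. The fit of the 7 MI, sham and sedentary libraries did not call Cx3cl1. Cxcl5 was not called, at 89.6 and 133 FPKM in MI, against 161 and 23.9 FPKM in sham (0.79 ± 0.99, adjusted p = 0.706).

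The promoter of Cxcl2 (GRCm38.p6, chr5:90903779-90903898, plus strand, 120 bases before the RefSeq start) is shown because it holds 2 copies of GGGNNTTTCC, a word bound by NF-kB, the factor that switches on inflammatory genes. Capitals mark the copies, which begin 97 and 78 bases before the start.
Cxcl2: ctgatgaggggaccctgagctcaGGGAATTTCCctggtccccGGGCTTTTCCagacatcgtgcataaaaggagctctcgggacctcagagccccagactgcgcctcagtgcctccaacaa
Of the 10 tested CXC and CX3C chemokines with a promoter in the table, 3 held the word on either strand in this window, and of the 8 CC chemokines 1 did, against 0.866% of all genes in the table. None of 20 NF-kB regulators and feedback genes was called in MI against sham by limma, with 6 at an unadjusted p under 0.05. For 15 of them both MI libraries lay below both sham libraries, against 25% of all genes tested, and their median was -0.43. Without MI replicate 1 there was 1 lower, and with the same median in every library there were 2. Without MI replicate 1 there was 1 call among the 20, with every library set to the same median there were 2, and limma without its trend and robust settings gave 1.

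**Figure D3:**
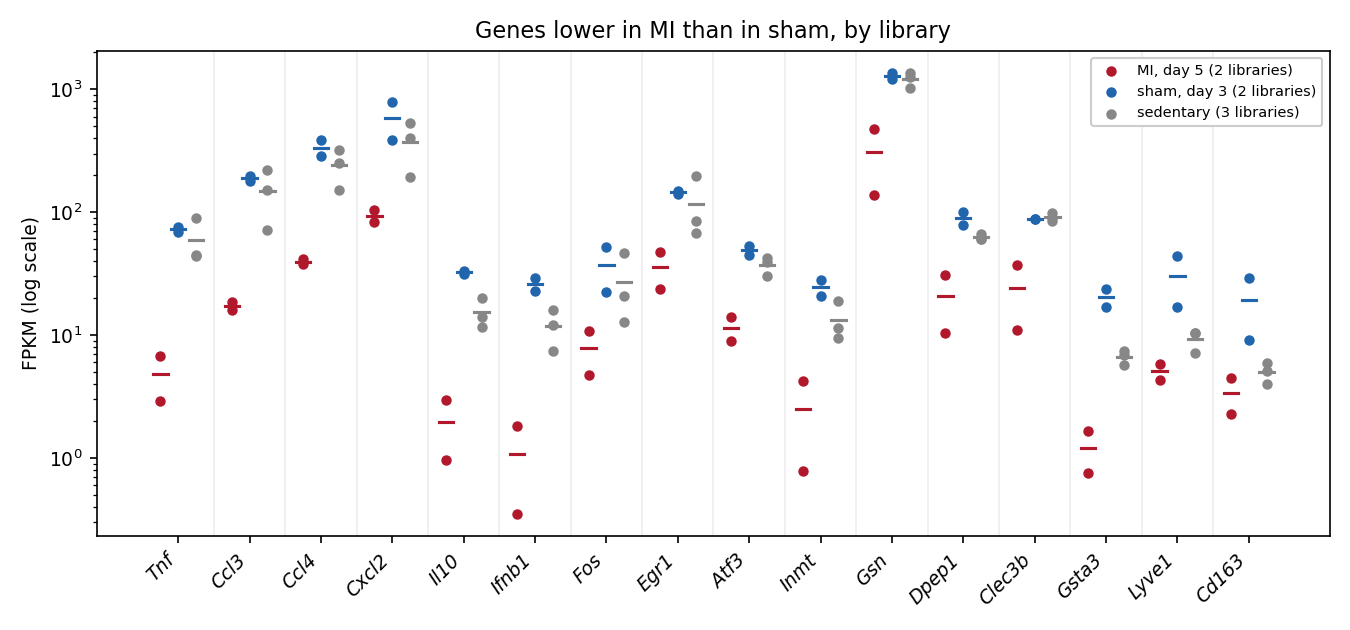
FPKM on a log axis of 16 genes lower in MI, 1 point per library and a bar at each group mean, for MI (red), sham (blue) and sedentary fibroblasts (grey). Tnf lies at 6.73 and 2.89 FPKM in MI, against 76.4 and 68.5 FPKM in sham. For Il10, Ifnb1, Atf3, Inmt, Dpep1, Gsta3, Lyve1 and Cd163 both sham points lie above the 3 sedentary ones.

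Few interferon genes were called, although most had a negative log2 fold change. Ifnb1 (chr4:88522025-88522794), interferon beta, had the largest fall among the called genes, at 1.81 and 0.351 FPKM in MI, against 29.2 and 22.7 FPKM in sham and 16.1, 12.0 and 7.40 FPKM in sedentary libraries (-3.78 ± 0.68 against sham, adjusted p = 0.00194). Its MI libraries differed several-fold and both lay below all others. Of 30 interferon-stimulated genes 1 rose, Ifi44, and 1 fell, Oas2, while the median was -0.70, and both calls were lost without either MI library. Oas2 was also lost without sham replicate 1 and Ifi44 without sham replicate 2, and 3 of the 30 had a positive log2 fold change. Ifit1 was at 11.3 and 57.5 FPKM in MI, against 164 and 66.5 FPKM in sham and 124, 108 and 11.5 FPKM in sedentary libraries, a spread within groups as wide as the difference between them (-1.97 ± 1.15, adjusted p = 0.348). Irf1, an interferon-regulated transcription factor, was the 1 member called of 14 in the list of inducible GTPases and guanylate-binding proteins, at 10.2 and 10.0 FPKM in MI, against 26.2 and 22.3 FPKM in sham (-1.18 ± 0.24, adjusted p = 0.00373). Of these 14 genes 0 had a positive log2 fold change, and their median was -0.87. None of 15 MHC class I and 7 MHC class II genes was called by limma, with 0 and 2 at an unadjusted p under 0.05 and medians of -0.27 and -0.52. With the same median in every library 1 class II gene was lower.

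Complement genes fell in 6 of 16 cases and rose in 1, with a median of -1.03. The falls numbered 0 without MI replicate 2, 1 without sham replicate 2 and 3 without sham replicate 1, and the rise, of Cfb, was lost without either MI library or sham replicate 1. C3, the central component, was at 52.5 and 24.0 FPKM in MI, against 144 and 219 FPKM in sham and 111, 47.5 and 92.0 FPKM in sedentary libraries (-2.29 ± 0.51, adjusted p = 0.00819). The sham libraries of C3 were the high ones, and against sedentary it was at -1.12 (adjusted p = 0.146). C1s and C1ra, proteases of the classical pathway, and their inhibitor Serping1 fell by 1.58, 1.40 and 1.37. Against sedentary, limma did not call C1s (-0.82, adjusted p = 0.171) or C1ra (-0.78, adjusted p = 0.14). Serping1 was called there (-0.99, adjusted p = 0.0309). Over the 16 complement genes the median was -0.23 against sedentary, with 3 lower and 1 higher, and 0.74 for sham against sedentary.

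Immediate early genes, which cells switch on within minutes of a stimulus, fell in 7 of 28 cases and rose in 0, with a median of -0.89, and 1 fell without MI replicate 2. Egr1 was at 47.5 and 23.7 FPKM in MI, against 150.1 and 139.6 FPKM in sham and 84.4, 67.4 and 198 FPKM in sedentary libraries (-2.07 ± 0.43, adjusted p = 0.00423), a call lost without MI replicate 2. Fos was at 10.9 and 4.72 FPKM in MI, against 22.3 and 52.3 FPKM in sham and 20.8, 12.8 and 46.9 FPKM in sedentary libraries (-2.10 ± 0.56, adjusted p = 0.0254, lost without MI replicate 2 or sham replicate 2), so the lowest sedentary library came near MI replicate 1. Atf3, a stress-induced transcription factor, was at 14.0 and 9.02 FPKM in MI, against 53.4 and 44.8 FPKM in sham (-2.03 ± 0.26, adjusted p = 5.61e-05), the member called with each library left out. Of 17 cell cycle inhibitors and p53 targets 5 fell and 1 rose, with 0 falls without MI replicate 2, 3 without MI replicate 1 and 2 without either sham library. Gadd45b and Gadd45a, stress genes of that list, fell by 1.73 and 1.46, both not called without MI replicate 2. Cdkn2b, an inhibitor of cyclin-dependent kinases, was the one that rose, by 0.90, a call lost without MI replicate 2 or either sham library.

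**Figure D4:**
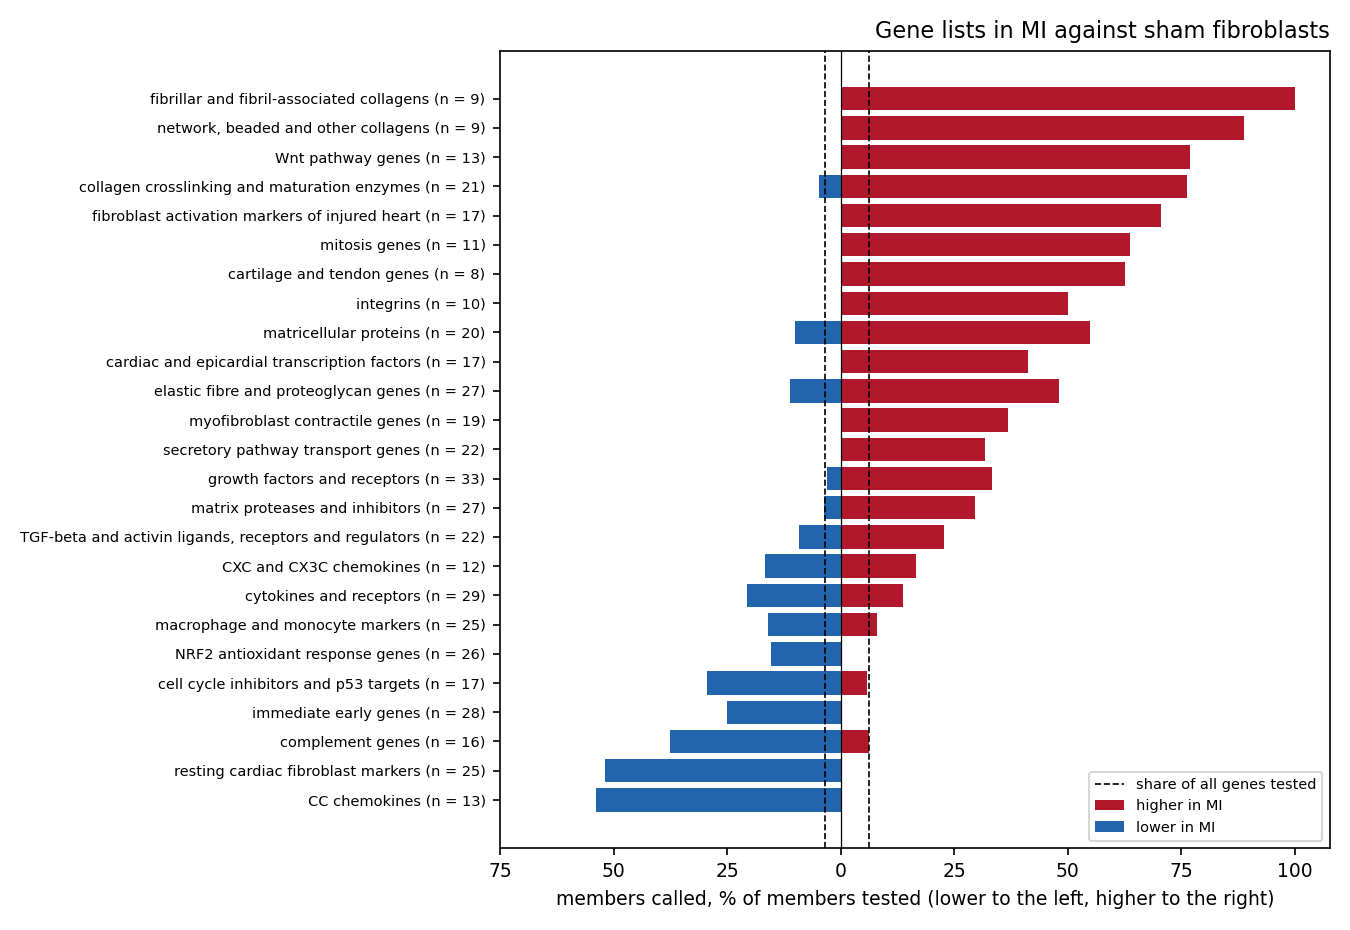
Share of tested members of each gene list called higher in MI (red, to the right) and lower in MI (blue, to the left), for the 25 lists with at least 8 members tested and at least 4 called. Dashed lines mark the shares of all genes tested, 6.32% higher and 3.56% lower; fibrillar and fibril-associated collagens stand at 9 of 9 higher and CC chemokines at 7 of 13 lower.

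Against sham, macrophage and monocyte markers did not shift in 1 direction. Of 25 tested, Gpnmb and Trem2 rose and Lyve1, Cd163, Folr2 and Timd4 fell, with a median of -0.20. Against sedentary 5 of the 25 were higher and 1 was lower, with a median of 0.47. The median of sham against sedentary was 0.76. Lyve1, Folr2, Timd4 and Cd163 are markers of tissue-resident macrophages. Lyve1 was at 5.86 and 4.30 FPKM in MI, against 17.0 and 43.7 FPKM in sham and 10.4, 7.14 and 10.3 FPKM in sedentary libraries (-2.23 ± 0.43 against sham, adjusted p = 0.00245; -0.75 against sedentary, adjusted p = 0.26). Sham replicate 2 stood above all the others. Cd163 was at 4.44 and 2.27 FPKM in MI, against 9.06 and 29.2 FPKM in sham (-2.05 ± 0.52, adjusted p = 0.0191), and like Folr2 it was not called without MI replicate 2 or without sham replicate 2. Gpnmb, a glycoprotein of lipid-handling macrophages, was at 10.2 and 20.8 FPKM in MI, against 2.76 and 7.67 FPKM in sham and 0.817, 0.611 and 0.901 FPKM in sedentary libraries (1.45 ± 0.34, adjusted p = 0.00973), and its call, like that of Trem2, was lost without MI replicate 2 or sham replicate 1. General markers did not pass: Lyz2, lysozyme, was at 456 and 450.0 FPKM in MI, against 353 and 861 FPKM in sham. Cd68 was at 26.8 and 37.1 FPKM in MI, against 35.0 and 51.8 FPKM in sham, and Ptprc, the gene of CD45, at 4.70 and 5.62 FPKM in MI, against 8.93 and 10.7 FPKM in sham. Sham replicate 2 was the highest of the 4 for each of these 3 genes. Tnf, Il10, Ccl3 and Ccl4 are known products of macrophages, and the part of macrophages in their falls was not tested.

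Few markers of other cells were called. None of 17 tested cardiomyocyte markers was called by limma (1 at an unadjusted p under 0.05), with a summed level of 253 and 264 FPKM in MI, against 315 and 271 FPKM in sham. Of 20 endothelial markers only Plvap rose, at 6.77 and 7.58 FPKM in MI, against 1.22 and 2.07 FPKM in sham and 5.93, 5.86 and 6.44 FPKM in sedentary libraries, so the sham libraries were the low ones, and its call was lost without MI replicate 2 or sham replicate 1. Of 18 lymphocyte markers 17 were in the table and 0 passed the expression filter, with sums of 1.52 and 1.72 FPKM in MI, against 0.943 and 4.03 FPKM in sham. Neutrophil markers summed to 5.59 and 6.55 FPKM in MI, against 21.3 and 74.8 FPKM in sham, and of 4 tested Retnlg fell (-2.12 ± 0.56, adjusted p = 0.0228), a call lost without MI replicate 2 or sham replicate 2. Retnla, a secreted marker of alternatively activated macrophages and a paralog of Retnlg, was at 5.83 and 1.90 FPKM in MI, against 15.6 and 33.3 FPKM in sham and 11.3, 54.2 and 20.1 FPKM in sedentary libraries (-2.43 ± 0.63, adjusted p = 0.0227), lost without the same libraries. The part of neutrophils in the fall of Cxcl2 and the other inflammatory genes was not tested.

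Housekeeping and energy lists showed no calls by limma at an adjusted p under 0.05. None of 35 oxidative phosphorylation genes, 19 glycolysis genes, 21 fatty acid oxidation genes, 16 heat shock genes or 26 cytosolic ribosomal proteins was called, with medians of 0.04, 0.06, -0.13, -0.34 and -0.07. At an unadjusted p under 0.05 there were 0, 4, 1, 3 and 0. Without MI replicate 1 there was 1 heat shock gene lower, and limma without its trend and robust settings called 1 glycolysis gene higher. After correction for transcript length and GC, 1 heat shock gene was lower and 1 glycolysis gene higher. Of 17 hypoxia response genes Adm, the vasodilator adrenomedullin, and Ddit4 fell, by 1.59 and 1.18, and both calls were lost without MI replicate 2 or sham replicate 1. The Adm call was also lost without MI replicate 1 and the Ddit4 call without sham replicate 2. Among 9 acute phase and antimicrobial genes Hp, haptoglobin, rose and Cp and Steap4 fell. Against sedentary, limma called neither Cp (-1.19, adjusted p = 0.0542) nor Steap4 (-0.30, adjusted p = 0.466). Both falls were lost without MI replicate 2 or sham replicate 1, that of Steap4 also without MI replicate 1 and that of Cp also without sham replicate 2. Hp was at 13.0 and 4.78 FPKM in MI, against 0.526 and 2.34 FPKM in sham (1.99 ± 0.54, adjusted p = 0.0295), a call lost without MI replicate 1 or sham replicate 1. In the 4 erythroid genes tested both MI libraries lay below both sham libraries, as in 25% of all genes tested. Their median was -3.68, and limma called none of them. Hba-a1, an alpha globin gene, was at 54.2 and 23.1 FPKM in MI, against 402 and 1224 FPKM in sham and 29.4, 934 and 4201 FPKM in sedentary libraries (adjusted p = 0.195). At an unadjusted p under 0.05 there were 2 of these 4.

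The 2 MI libraries stood at unequal distances from sham. MI replicate 2 was further from the sham mean than MI replicate 1 for 436 of the 596 genes called higher and for 297 of the 336 called lower. The estimated depth of MI replicates 1 and 2 was 2.30 and 2.09 times that of sham replicate 2. Rn45s was at 1289 and 119.6 FPKM in these MI libraries. The part of depth or of Rn45s in this difference was not tested.

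**Figure D5:**
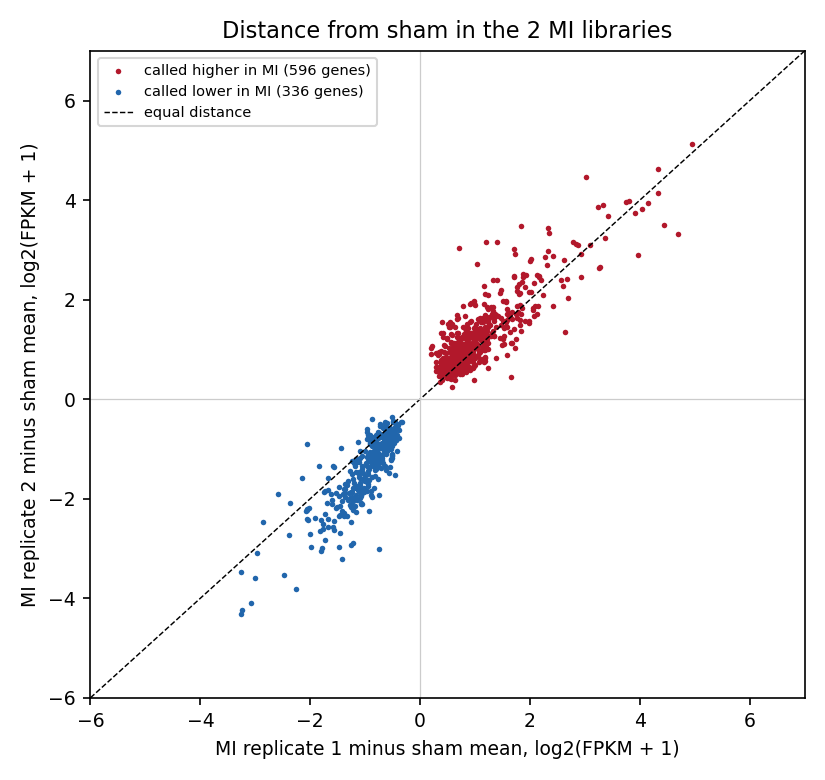
For each of the 932 called genes, the distance from the mean of the sham libraries in log2(FPKM + 1) is plotted for MI replicate 1 (x axis) and MI replicate 2 (y axis), with genes called higher in red and lower in blue. Points beyond the dashed line of equality, above it for red and below it for blue, are genes further from sham in MI replicate 2, which are 436 of 596 and 297 of 336.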

How the data were processed

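Per the labels, poly-A RNA was sequenced from 22 libraries, 19 of them of cardiac fibroblasts. The authors computed FPKM with Cufflinks 2.0.2 on mm10, per the submitters' processing notes; the sources used here do not give the aligner or annotation, and 44 columns of confidence bounds were not used. The authors' deposited comparison table holds their log2 fold changes and q-values. It was used for the overlap of calls. Depth in reads is unknown.

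Genes that reached an FPKM of 1 in 2 or more fibroblast libraries were kept, 9425 of 23359. A gene could pass this filter through the MI libraries alone. Their log2(FPKM + 1) values went into 1 model of 7 fibroblast groups in limma 3.58.1 with its trend and robust settings, in R 4.3.3. The procedure was also run on simulated independent normal values. These held no date effect and no counting error, so that run does not cover such features of the data. The added 1 understates changes of low genes. Calls were Benjamini-Hochberg adjusted p under 0.05. The 58 gene lists held 1060 different symbols.

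The comparison and lists were chosen with earlier results of these data known. Named genes were the 15 largest rises and falls whose mean reached 5 FPKM on the higher side, up to 5 called members per list, and a fixed set. Members that complete a count, and Sparc and Dcn, were named after their values were seen. Promoters came from RefSeq, and 27 symbols turned into dates were left unnamed. Coordinates are those of the files in mm10, counted from 1. Alternatives were other pseudocounts, filters, scaling, a length and GC correction, fits of fewer groups, and leaving out each library.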

Additional observations from a re-analysis of the deposited data

How the results depend on the processing

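The genes higher in MI than in sham, 596, numbered 125 in a fit of the 4 MI and sham libraries only, 307 with the 7 MI, sham and sedentary libraries only, 274 with a filter at FPKM 5 and 1022 with no filter, and 271 to 506 with each library left out. The genes lower, 336, numbered 33, 136 and 210 in the first 3 of these and 70 to 298 with each library left out. With every library set to the same median there were 614 higher and 451 lower and after a length and GC correction there were 734 and 489. Against sedentary, 842 higher genes became 433 in the fit of 7 libraries, 395 with the filter at FPKM 5, 1403 with no filter and 285 to 1039 with each library left out. The 221 lower became 84 in the fit of 7 libraries, 438 with the same median and 25 to 265 with each library left out. For sham against sedentary, 2 higher and 0 lower became 7 and 6 with no filter, 5 higher with a pseudocount of 5, 1 higher with a pseudocount of 0.1 or the filter at FPKM 5, and 0 higher in the fit of 7 libraries, with the same median, after the length and GC correction and without limma's trend and robust settings. With each library left out, sham against sedentary gave 0 to 142 higher and 0 to 2 lower, the 142 without sham replicate 1. Smaller fits test fewer genes or hold fewer samples by construction; for the other changes the cause was not tested. Of the 159 named genes called, 54 kept call and direction under every alternative run, 78 kept them with each library left out, and 76 were not called without MI replicate 2; none changed direction past the threshold. The fit of the 4 MI and sham libraries did not call 98 of these 159, and the fit of 7 libraries did not call 53. Calls also required to have groups that do not overlap, an alternative chosen after seeing the data, numbered the same 596 and 336. No paired analysis was possible because the labels give the MI and sham libraries no shared replicate numbers. The depth in reads is unknown, so genes near 1 FPKM carry an unmeasured counting error.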
